A study of Mus musculus with 24 samples.

Results

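The genes described here are 32 genes of MYC and of ribosome biogenesis, followed through adipocyte differentiation of 3T3-L1 cells, an immortal mouse fibroblast line that turns into fat cells after hormonal induction. They were chosen by name, as a list of MYC network genes and of factors that make ribosomes, with earlier results of these data known. All 32 were found among the 26995 gene symbols of the count tables. Where a symbol had several 3′UTR entries, the one with most total reads on average was used. Tcof1 had 26 entries and Nop14 had 19, and the entries not chosen were not examined. Cells received DMSO, the vehicle, or 0.5 µM ML-792, an inhibitor of the SUMO-activating enzyme SAE1/2, and were harvested at days −2, 1, 3 and 7. Induction medium held dexamethasone, 3-isobutyl-1-methylxanthine and insulin, and was replaced at day 3 by medium with insulin. Before harvest all cells, the DMSO controls included, were given 100 µM 4-thiouridine for 45 min. Each of the 8 conditions had 3 biological replicates, lettered A, B and C. For how long the day −2 cells had been in ML-792 is not given in the sources used here. All comparisons were made in this single cell line, and the inhibitor was used at 1 dose.

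MYC is a transcription factor that binds DNA together with MAX, at sites known as E-boxes, and its mRNA is very short-lived. Proteins of the MXD family pair with the same MAX and repress genes at the same sites. MYC is best known for driving growth, and its classic targets include the machinery that builds ribosomes. RNA polymerase I transcribes the ribosomal RNA precursor in the nucleolus, small nucleolar ribonucleoproteins (snoRNPs) guide its modification, and further sets of factors cut the precursor and assemble it into the small and the large ribosomal subunit. 3T3-L1 cells divide again shortly after induction, a step called clonal expansion, and then stop dividing as they fill with lipid.

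The letters of the E-box, CACGTG, were looked up in RefSeq promoter windows (GRCm38.p6, the assembly of mm10) that run from 250 bases before to 50 bases after a start site. Windows were found for 26 of the 32 genes, and not for Bop1, Fbl, Myc, Npm1, Rrs1 and Tcof1. Of these 26 genes, 8 (30.8%) had the motif, which reads the same on both strands, in at least 1 window. The motif was found in 7.15% of the 32851 windows of all genes and in 8.09% of the 27025 genes with a window. Of the 9924 tested genes with a window, 11.7% had it. It was found in 18.3% of 71 other ribosome biogenesis genes and in 39.5% of 38 other MYC target genes. The stretches around the motif are printed for the 8 genes, as the letters that the MYC-MAX pair is known to read. The motif is in capitals, each stretch reads 5′ to 3′ along the gene's strand, and a match is a description of the letters, not of binding.
Max, chr12:76962234-76962263, minus strand: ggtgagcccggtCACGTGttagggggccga
Mxd4, chr5:34187912-34187941, minus strand: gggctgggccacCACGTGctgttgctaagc
Rrn3, chr16:13780472-13780501, plus strand: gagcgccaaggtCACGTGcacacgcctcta
Rrn3, chr16:13780639-13780668, plus strand: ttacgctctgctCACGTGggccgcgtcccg
Utp20, chr10:88826765-88826789, minus strand: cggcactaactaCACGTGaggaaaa
Wdr43, chr17:71616220-71616249, plus strand: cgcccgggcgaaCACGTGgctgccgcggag
Ltv1, chr10:13193092-13193121, minus strand: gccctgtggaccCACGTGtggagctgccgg
Pes1, chr11:3963965-3963994, plus strand: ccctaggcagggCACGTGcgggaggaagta
Nop2, chr6:125131811-125131840, plus strand: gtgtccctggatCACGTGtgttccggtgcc
In Max, Wdr43, Ltv1 and Pes1 the motif began between 3 bases before and 29 bases after the start site. In Nop2 it began 60 bases and in Mxd4 219 bases before it, and in Utp20 38 bases after it. Rrn3 was the one gene of the 8 with more than 1 site, at 215 and 48 bases before the start. Of these 8 genes, Rrn3, Ltv1, Pes1 and Nop2 were called higher with time in the comparisons given below, and Max, Mxd4, Utp20 and Wdr43 were not. In the whole list, 16 of the 32 genes were called higher on at least 1 of these days. The share of all genes called on any of the days is not given here, and a link between motif and call was not tested.

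Both readouts came from each library. QuantSeq counts all reads at the 3′ end of mRNAs and gives the total level of a transcript. SLAMseq counts only the reads with at least 1 T>C conversion, the mark left by 4-thiouridine, and gives the RNA made during the pulse. With 1 entry per gene a library held 9118951 to 18306796 total reads but only 78312 to 553883 labelled reads, so that labelled values carry the larger error. Replicates correlated with r = 0.966 to 0.987 over the 13287 genes tested in total reads and with r = 0.715 to 0.891 over the 6323 genes tested in labelled reads. The 6 adipocyte markers (Adipoq, Fabp4, Plin1, Cidec, Pparg and Cebpa) summed to 1968 to 2902 normalized reads at day −2 and to 319450 to 363427 at day 7 in DMSO. The 5 macrophage markers (Ptprc, Cd68, Adgre1, Csf1r and Lyz2) summed to 32.6 to 144 over all libraries, with Ptprc at 0 in each. Among them Cd68 was called higher at day 3 than at day −2 (log2 2.24) and Csf1r lower at day 7 (−5.55) in DMSO, and their part in the values given here was not tested. These are bulk samples, in which fewer cells of a type and less RNA per cell cannot be told apart.

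In DMSO the genes of the list that were called after induction all rose, most of them by day 3. In total reads, 7 of the 32 genes were called higher at day 1 than at day −2 (7.32% of all genes tested), 15 at day 3 (16.9%) and 9 at day 7 (18.9%), and none was called lower on any of these days (11.0%, 20.6% and 20.7%). Called means an adjusted p under 0.01 in edgeR's quasi-likelihood test with Benjamini-Hochberg adjustment over all genes tested. All 7 genes of day 1 were also called at day 3, and 5 of them, Nhp2, Nolc1, Nop16, Nop2 and Polr1b, on all 3 days. The 3 comparisons share the libraries of day −2. The 3 libraries of the later day lay above all 3 of day −2 for 16 genes at day 1, 22 at day 3 and 17 at day 7 (19.0%, 26.9% and 28.7% of all genes tested), and below them for 2, 0 and 1 (24.2%, 30.0% and 31.9%). Over the 32 genes the median log2 fold change came to 0.54, 0.81 and 0.43 at days 1, 3 and 7, beside −0.02, −0.01 and −0.05 over all genes tested. Together the 32 genes took 0.192 to 0.224% of the total reads at day −2, 0.273 to 0.300% at day 1, 0.278 to 0.316% at day 3 and 0.216 to 0.223% at day 7. Genes with many reads weigh most in this sum, first Ncl, Npm1 and Ddx21 (6935, 2717 and 2400 reads per library on average). The mean level in DMSO was highest at day 3 for 18 of the 32 genes, at day 1 for 7, at day 7 for 4 and at day −2 for 3.

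**Figure D1:**
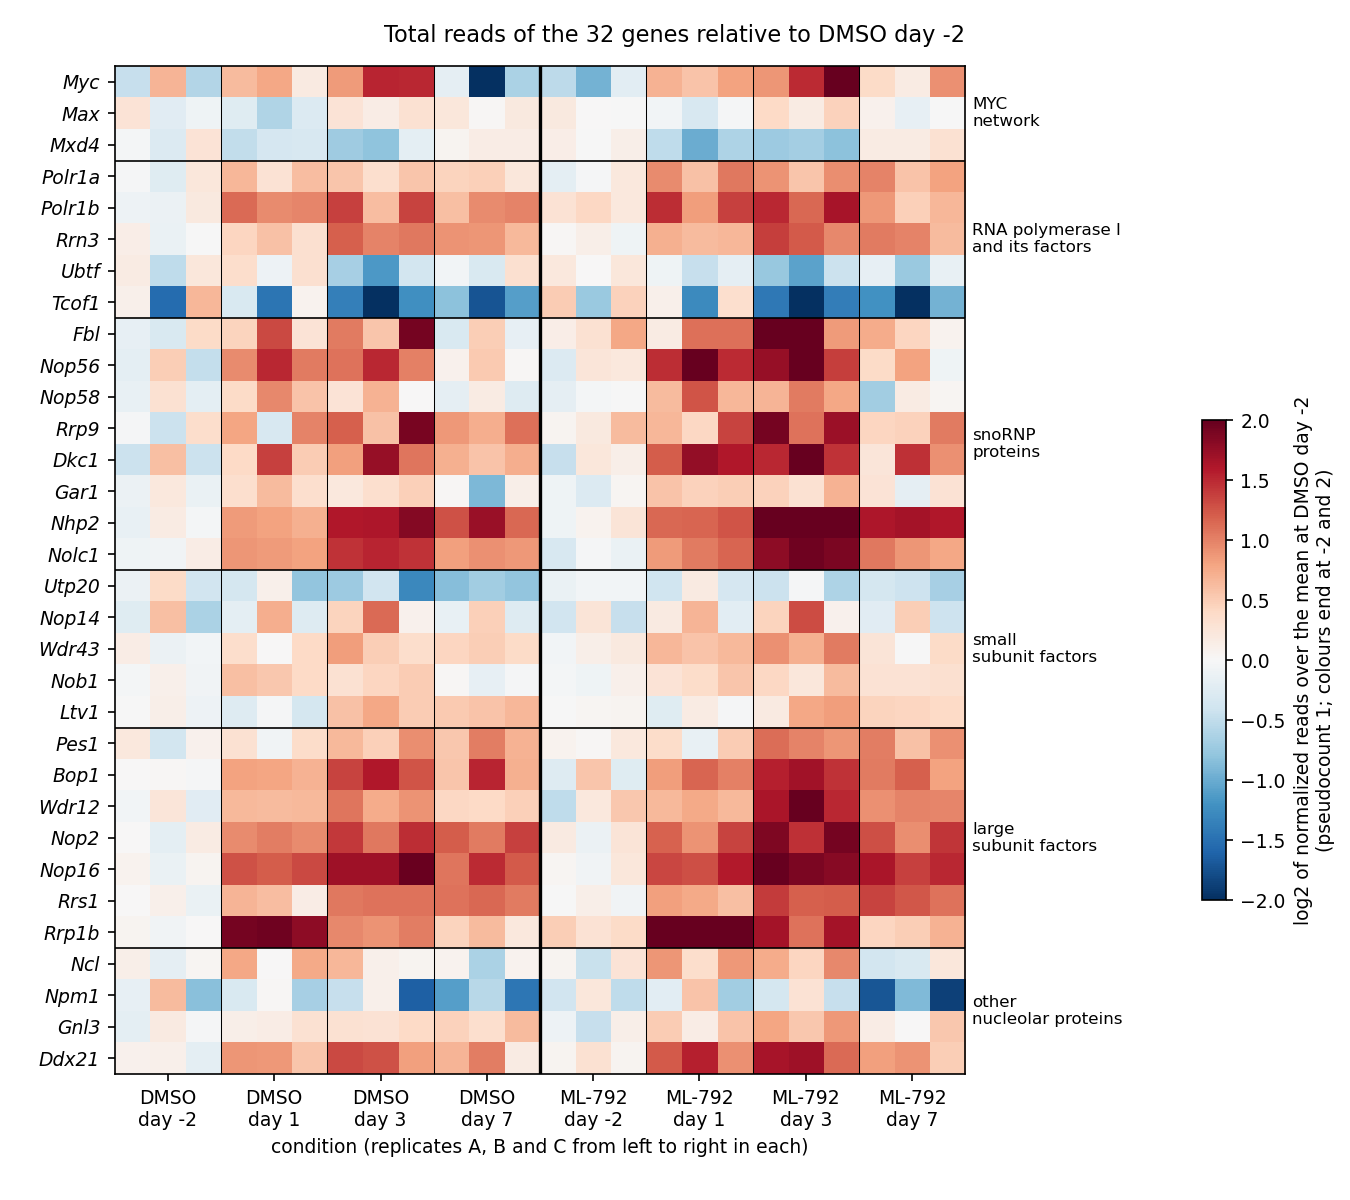
Total reads of each of the 32 genes (rows, grouped by role) in the 24 libraries (columns), as log2 of normalized reads over the gene's mean at DMSO day −2. Most snoRNP and large subunit factors are red at days 1 and 3 in both treatments, while Ubtf, Tcof1, Utp20, Npm1 and Mxd4 include blue libraries at day 3.

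The 3 replicates do not count alike in these numbers. At day 3, 6 genes were called without replicate A, 22 without replicate B and 9 without replicate C, where 18.9%, 42.2% and 22.5% of all genes were called in either direction, beside 37.5% with all replicates. At day 1 the counts were 1, 13 and 3 (4.37%, 24.4% and 7.42% of all genes, beside 18.3%), and at day 7 they were 3, 11 and 6 (21.5%, 42.9% and 26.8%, beside 39.6%). All of these calls were higher except those of Tcof1 and Ubtf at day 3 and of Tcof1 at day 7, which were called lower without replicate B. The calls of Rrp1b at day 1, of Rrn3, Nolc1 and Bop1 at day 3 and of Nhp2, Nop2 and Nop16 at days 3 and 7 held in each setting tried, and every other call was lost without at least 1 of the replicates. With the letters as a replicate block, 12 genes were called at day 1 (26.7% of all genes), the 7 above and Bop1, Ddx21, Nob1, Nop58 and Rrn3, all higher. At day 3 the block gave 22 (45.6%), the 15 above with Nop14, Pes1 and Wdr43 higher and Mxd4, Tcof1, Ubtf and Utp20 lower. In single genes the replicates kept their order over the conditions. Replicate B was the highest of the 3 in 8 of 8 conditions for Nop56, Nop14 and Npm1, and the lowest in 8 of 8 for Ubtf and Tcof1. Replicate C was the lowest in 8 of 8 for Nop14, Npm1 and Ddx21. The share of all genes with such an order is not given here. The markers of dividing cells (Mki67, Top2a, Ccnb1, Ccna2, Cdk1 and Bub1) moved over the same days. Their sum was 3820.5 to 4176 normalized reads at day −2, 13513 to 18937 at day 1, 4143 to 5701 at day 3 and 728 to 1305 at day 7 in DMSO, and 4 of the 6 were called higher at day 1, 1 at day 3 and none at day 7, when all 6 were called lower. Their part in the changes of the 32 genes was not tested.

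Myc (counted at chr15:61989909-61990361, plus strand) was 312, 692 and 287 normalized total reads in replicates A, B and C at day −2. It stood at 668, 732 and 488 at day 1 and at 779, 1238 and 1225 at day 3. By day 7 it was down to 381, 60.3 and 278. The 3 libraries of day 3 all lay above those of day −2, where replicate B was above the sum of A and C, and the 3 of day 7 all lay below those of day 3. Against day −2 none of the 3 later days was called (log2 fold change 1.33 ± 0.48, adjusted p = 0.0324 at day 3 and −0.85 ± 0.48, adjusted p = 0.159 at day 7, where the value was 0.14 without replicate B). Myc was called lower at day 7 than at day 3 (log2 fold change −2.17 ± 0.50, adjusted p = 0.00592), 1 of only 2 of the 32 genes called in that comparison (4.91% of all genes were called lower and 7.00% higher). That call held without replicate B and was lost without A or C (adjusted p = 0.000688, 0.0246 and 0.0626). It was also lost with the replicate block (0.0197), which called 6 of the 32 genes here (19.5% of all genes), and without the filter on low counts (0.0568). Without replicate B the genes called lower at day 7 than at day 3 were 6, Bop1, Myc, Nolc1, Nop16, Nop56 and Rrp1b (6.99% of all genes).

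Max, the obligate partner of MYC (counted at chr12:76937271-76938755, minus strand), changed less. Its libraries read 1466, 1043 and 1143 at day −2, 1029.6, 800.2 and 1011 at day 1, 1468, 1349 and 1497 at day 3 and 1424, 1231 and 1401 at day 7. Those of day 1 lay below all of day −2, and no day was called against day −2. Mxd4, a member of the MXD family (chr5:34176580-34176991, minus strand), had its lowest mean at day 3, where Myc had its highest. Its libraries read 862, 735 and 1073 at day −2 and 631, 705 and 712 at day 1. They read 543, 511 and 778 at day 3 and 924, 989 and 985 at day 7. The libraries of day 1 lay below all of day −2 and those of day 7 above all of day 3, but neither difference was called (adjusted p = 0.150 and 0.0230). With the replicate block, Mxd4 was called lower at day 3 than at day −2 and higher at day 7 than at day 3.

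**Figure D2:**
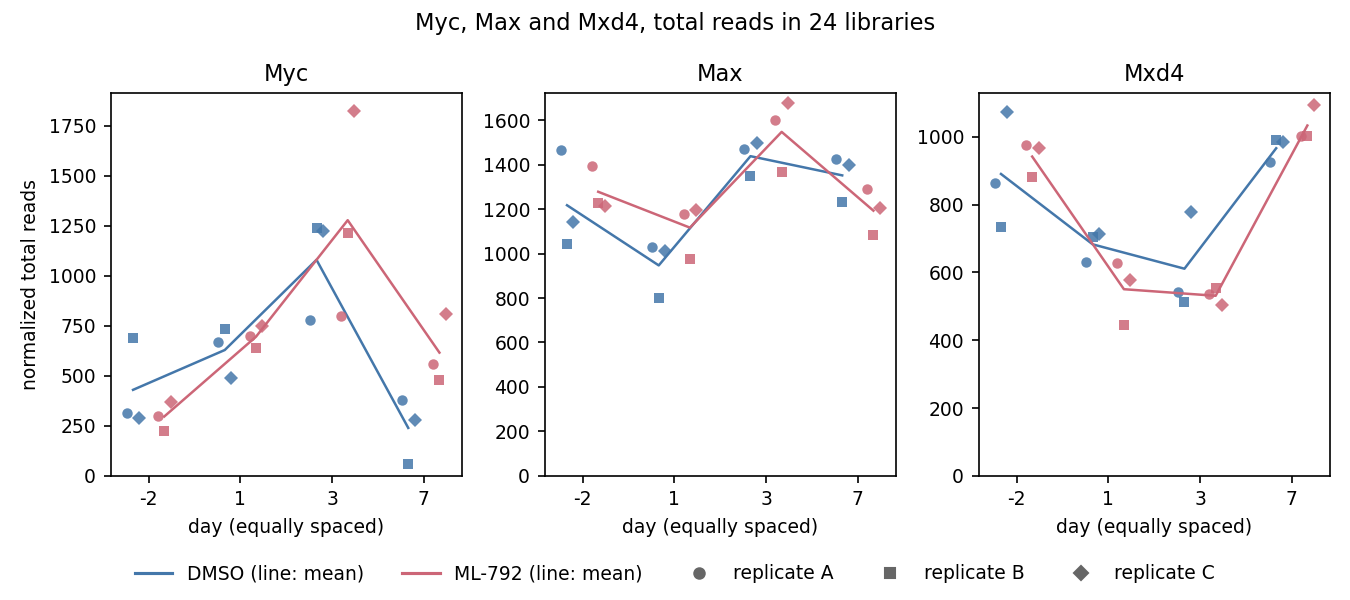
Normalized total reads (y axis, from 0) of Myc, Max and Mxd4 at each day, with 1 symbol per library and lines through the means of DMSO and ML-792. Myc peaks at day 3 in both treatments, and its DMSO and ML-792 libraries separate at day 7, where the DMSO library of replicate B lies at 60.3 reads.

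Among RNA polymerase I and its factors, Polr1b and Rrn3 rose and the other 3 genes were not called at day 3. Of all genes tested, 16.9% were called higher on that day and 20.6% lower. Polr1b is the second largest subunit of the enzyme (chr2:129126097-129128060, plus strand). It read 76.1, 74.8 and 93.9 at day −2, 179.5, 158 and 162 at day 1, 213, 126 and 211 at day 3 and 124, 158 and 164 at day 7. Every later library lay above the 3 of day −2, and the gene was called on all 3 days, by 2.24-fold at day 3 (log2 fold change 1.16 ± 0.25, adjusted p = 0.00129). Rrn3, the initiation factor that recruits the enzyme, rose by 2.12-fold at day 3 (log2 1.09 ± 0.15, adjusted p = 3.23e-05) and stayed higher at day 7 (log2 0.81). The largest subunit, Polr1a, had positive differences of 0.53, 0.49 and 0.39 at days 1, 3 and 7, none of them called. Ubtf, which opens ribosomal DNA for transcription, stood at −0.69 on the log2 scale at day 3 (adjusted p = 0.0313). Tcof1, which works with it, stood at −1.53 (adjusted p = 0.0188). In both genes the day −2 library of replicate B, the lowest of its day, lay within the range of day 3. Without replicate B both were called lower at day 3 (log2 −1.71 ± 0.25, adjusted p = 6.18e-05 for Tcof1 and −0.71 ± 0.15, adjusted p = 0.00152 for Ubtf), and Tcof1 was lower at day 7 as well (log2 −1.37 ± 0.24).

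Of the 8 snoRNP proteins, 5 were called higher at day 3 (16.9% of all genes tested), and the median log2 fold change of the group was 1.30. Nhp2 is a core protein of the H/ACA snoRNPs, which guide pseudouridylation, and its entry (chr11:51623218-51623714, plus strand) overlaps Rmnd5b on the other strand. It read 371, 464 and 401 at day −2, 743, 719 and 674 at day 1, 1257, 1271 and 1478 at day 3 and 998, 1371 and 913 at day 7. The libraries of each later day lay above all of day −2, and those of day 3 above all of day 1. The change was 3.24-fold at day 3 (log2 1.70 ± 0.18, adjusted p = 2.28e-06) and 2.65-fold at day 7. Nolc1, a nucleolar chaperone of snoRNPs (chr19:46084171-46085543, plus strand), had the tightest replicates of the group, with 667, 673 and 783 at day −2 and 1310.5, 1275 and 1241 at day 1. It reached 1931, 2044 and 1925 at day 3 and returned to 1243, 1338 and 1287 at day 7. Nolc1 rose by 2.78-fold to day 3 (log2 1.48 ± 0.14, adjusted p = 7.23e-07) and was, beside Myc, the other gene called lower at day 7 than at day 3 (log2 −0.61 ± 0.14, adjusted p = 0.00561).

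Nop56, a core protein of the C/D snoRNPs that guide methylation (chr2:130278431-130279308, plus strand), read 313, 506 and 256 at day −2, 688, 1022 and 735 at day 1, 758, 1020.2 and 724 at day 3 and 379, 516 and 365 at day 7. Replicate B was the highest on each day, and the rise to day 1 was present within each letter (2.28-fold, log2 1.19 ± 0.26, adjusted p = 0.00321). Its partner Nop58 stood at 0.66 at day 1 and 0.35 at day 3 without a call. Dkc1, the pseudouridine synthase (log2 1.28), and Rrp9, a protein of the U3 snoRNP (log2 1.33), were called at day 3, and both calls were lost without replicate A or without C. The entry of Dkc1 overlaps Mpp1 on the other strand. Gar1 (log2 0.34) was not called, and Fbl, the methyltransferase of the C/D snoRNPs, was counted at an entry of 114 bases that held 20.1 reads per library on average, too few for a firm value (log2 1.34 ± 0.54, adjusted p = 0.0501).

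The small subunit factors had a median log2 fold change of 0.58 at day 3, when 16.9% of all genes tested were called higher. Of 5 genes, Ltv1, which helps export and mature the small subunit, was the one called at day 3 (log2 0.62 ± 0.18, adjusted p = 0.00849), with libraries of 246, 269 and 230.2 at day −2 against 372, 423 and 352 at day 3. Wdr43 (log2 0.58), Nop14 (log2 0.62) and Nob1, the nuclease that makes the final cut of 18S rRNA (log2 0.42), were not called. Utp20, a scaffold of the early small subunit precursor, had lower means on all later days (374 ± 105, SD, n = 3, at day −2 and 217 ± 11.9 at day 7), with the libraries of day 7 below all of day −2 but no call (log2 −0.78 ± 0.28, adjusted p = 0.0305).

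Most large subunit factors rose. At day 3, 6 of 7 were called higher (16.9% of all genes tested) with a group median of 1.08. At day 7, 5 of 7 were called higher (18.9% of all genes) with a median of 0.99. Nop16 (chr13:54584191-54585280, minus strand) had the largest change of all 32 genes at day 3, with 387, 336 and 386 at day −2, 895, 862 and 927 at day 1, 1205, 1200.5 and 1455 at day 3 and 777, 1043 and 865 at day 7. The rise was 2.42-fold at day 1, 3.48-fold at day 3 (log2 1.80 ± 0.17, adjusted p = 4.96e-07) and 2.42-fold at day 7. Nop2, a methyltransferase of 28S rRNA (chr6:125144642-125144753, plus strand), read 667, 578 and 746 at day −2 and 1273, 1347 and 1278 at day 1. It read 1777, 1381 and 1852 at day 3 and 1541, 1369 and 1714 at day 7, so that all later libraries were above all of day −2 (log2 1.33 ± 0.17, adjusted p = 1.18e-05 at day 3).

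Rrp1b had its highest mean at day 1, and the other large subunit factors had theirs at day 3 or day 7. Its libraries (chr17:32060542-32062862, plus strand) read 222, 204 and 213 at day −2 and 802, 819 and 742 at day 1. They read 418, 399 and 435 at day 3 and 291, 329 and 246 at day 7. The 3.70-fold rise to day 1 (log2 1.89 ± 0.17, adjusted p = 1.28e-06) was the largest of the 32 genes on that day, and Rrp1b was the only one of them called lower at day 3 than at day 1 (log2 −0.92 ± 0.16, adjusted p = 4.37e-04). Nhp2, Nolc1, Rrn3 and Ltv1 were called higher in that comparison (11.9% of all genes tested were called higher and 12.4% lower).

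Rrs1, which brings the 5S particle into the large subunit (chr1:9546622-9547455, plus strand), read 324, 348 and 296 at day −2, 518, 495 and 359 at day 1, 674, 689 and 686 at day 3 and 688, 718 and 661 at day 7 (log2 1.09 ± 0.17, adjusted p = 7.85e-05 at day 7). Bop1, Pes1 and Wdr12 form 1 complex. Bop1 (chr15:76452996-76453224, minus strand, overlapping Mroh1 on the other strand) read 391, 392 and 379 at day −2, 679.9, 673 and 626 at day 1, 995, 1173 and 929 at day 3 and 571, 1113 and 631 at day 7. It was called at days 3 and 7 (log2 1.41 and 0.99), with replicate B far above A and C on the last day, and without A or without C the call of day 7 was lost. Wdr12 was called at day 3 (log2 0.91) and Pes1 at day 7 (log2 0.77). The call of Pes1 was lost without any 1 of the 3 replicates.

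Among the other nucleolar proteins Ddx21, an RNA helicase, was called higher at day 3 (log2 1.15 ± 0.22, adjusted p = 4.32e-04, 1371 ± 152 against 3053 ± 538, SD, n = 3). Ncl, nucleolin, and Gnl3, nucleostemin, stood at 0.30 and 0.33 without a call, and the entry of Gnl3 overlaps Glt8d1 on the other strand. Npm1, nucleophosmin, had negative values on all 3 days (−0.29, −0.50 and −0.99), again uncalled, over replicates that spread from 1938 to 5369.6 at day −2.

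**Figure D3:**
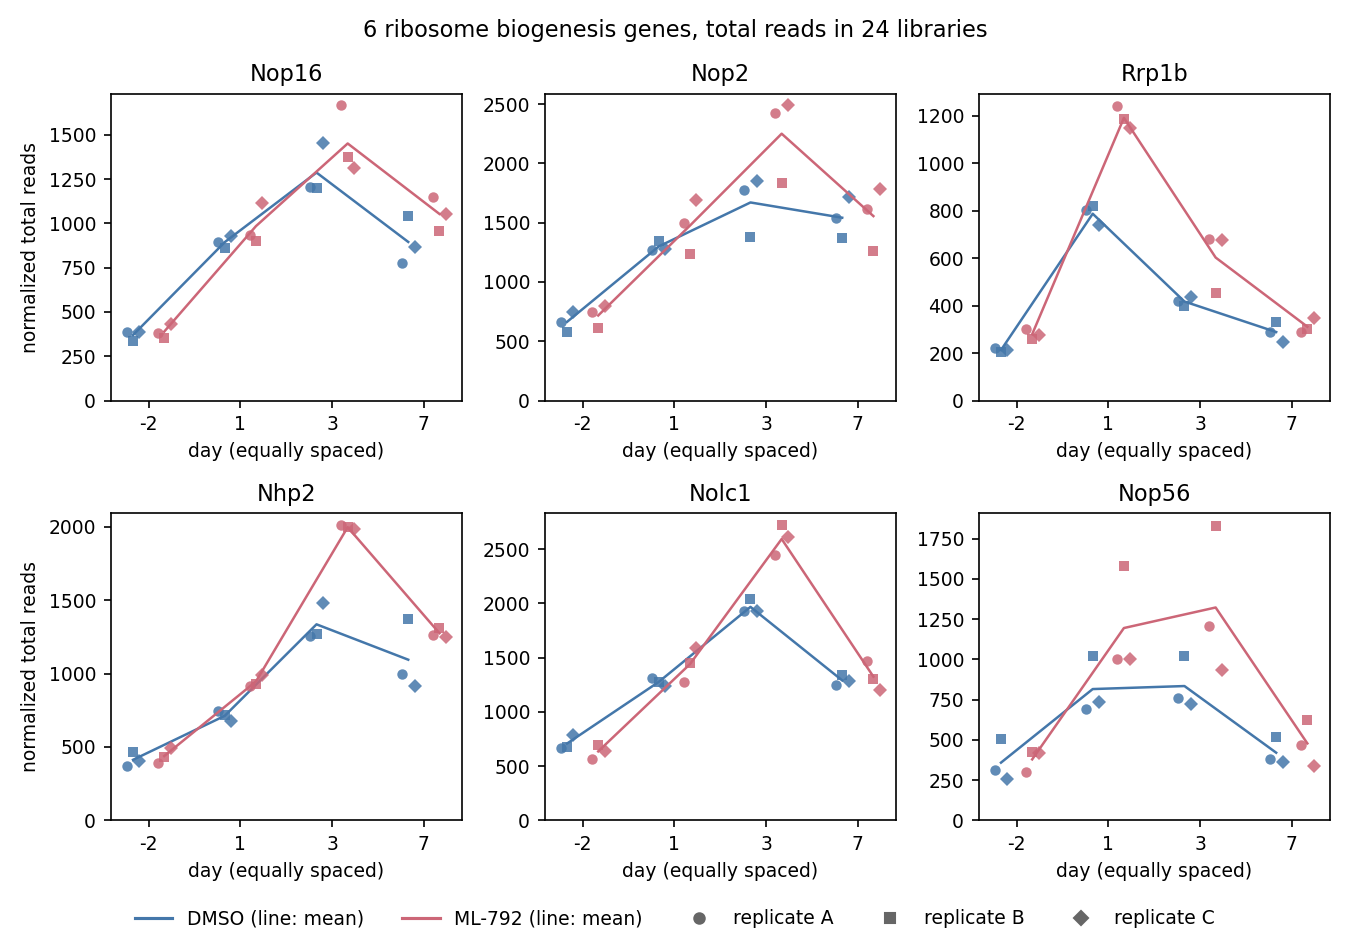
Normalized total reads (y axes, from 0) of 3 large subunit factors (upper row) and 3 snoRNP proteins (lower row) at each day, with 1 symbol per library and lines through the means. Rrp1b peaks at day 1 and the other 5 at day 3, and the ML-792 libraries of Nhp2 and Nolc1 at day 3 lie above all DMSO libraries.

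Genes of the same processes outside the list were counted in the same fit. Their lists, too, were chosen with earlier results of these data known. Of 83 other ribosome biogenesis genes, 6 were called higher at day 1, 30 at day 3 and 14 at day 7 (7.32%, 16.9% and 18.9% of all genes tested). At days 1 and 7 their share was close to that of all genes. Only 1 was called lower, at day 7 (20.7% of all genes), and the medians were 0.34, 0.58 and 0.28. The largest changes at day 3 were those of Rcl1 (log2 2.23), Nol6 (1.90) and Ftsj3 (1.87). Over all genes tested, 16.9% were called higher and 20.6% lower at day 3. Of 15 other RNA polymerase I genes tested, 4 were called higher at day 3 and none lower, among them Polr1e (1.26). Of 40 other MYC target genes, 23 were called higher and 2 lower at day 3, led by Hspd1, a mitochondrial chaperone (2.52), and Hk2, a hexokinase (2.14). In the wider MYC network Mxi1, another repressor that pairs with MAX, rose from a mean of 134 normalized reads at day −2 to 681 at day 3 and 956 at day 7. Mxd3, of the same family, ran from 74.1 to 181 at day 1 and down to 8.36 at day 7. Mlxipl, which encodes the glucose sensor ChREBP, had no read at day −2 and reached a mean of 61.8 at day 7.

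In ML-792 most of these genes stood slightly above DMSO at days 1 and 3, and a few were called. At day −2 none of the 32 genes was called against DMSO at an adjusted p under 0.1 (0.00% of all genes; 1 of the 32, Rrp1b, had an unadjusted p under 0.05, and DESeq2 called none). At day 1, 2 genes were called higher (4.50%), at day 3, 4 (9.08%) and at day 7, 2 (7.23%), and none was called lower on any of these days (4.61%, 8.06% and 6.72%). With the letters as a replicate block, 8 genes were called at day 1 (18.3% of all genes in either direction), Ubtf lower and the others higher. At day 3 the block gave 14 genes, all higher (26.8%), and at day 7 it gave 6 (25.0%), with Npm1 and Ubtf lower. The log2 difference was positive for 29 of the 32 genes at day 1 and for 29 at day 3, 28 of them on both days, and for 21 at day 7. Over all 13287 genes it was positive for 6577, 6747 and 6593. The median of the 32 genes was 0.22, 0.31 and 0.08 at days 1, 3 and 7, and 0.07 at day −2, beside medians of no more than 0.02 in size over all genes. The ML-792 libraries lay above all DMSO libraries of the day for 6 genes on each of these days (10.3%, 13.2% and 13.5% of all genes) and below them for 1, 0 and 1 (11.2%, 12.5% and 14.3%). The summed share of the 32 genes in total reads was 0.330 to 0.351% at day 1 and 0.365 to 0.375% at day 3 in ML-792, above every DMSO library of the same day, and 0.223 to 0.237% at day 7. In this sum, too, genes with many reads such as Ncl weigh most.

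**Figure D4:**
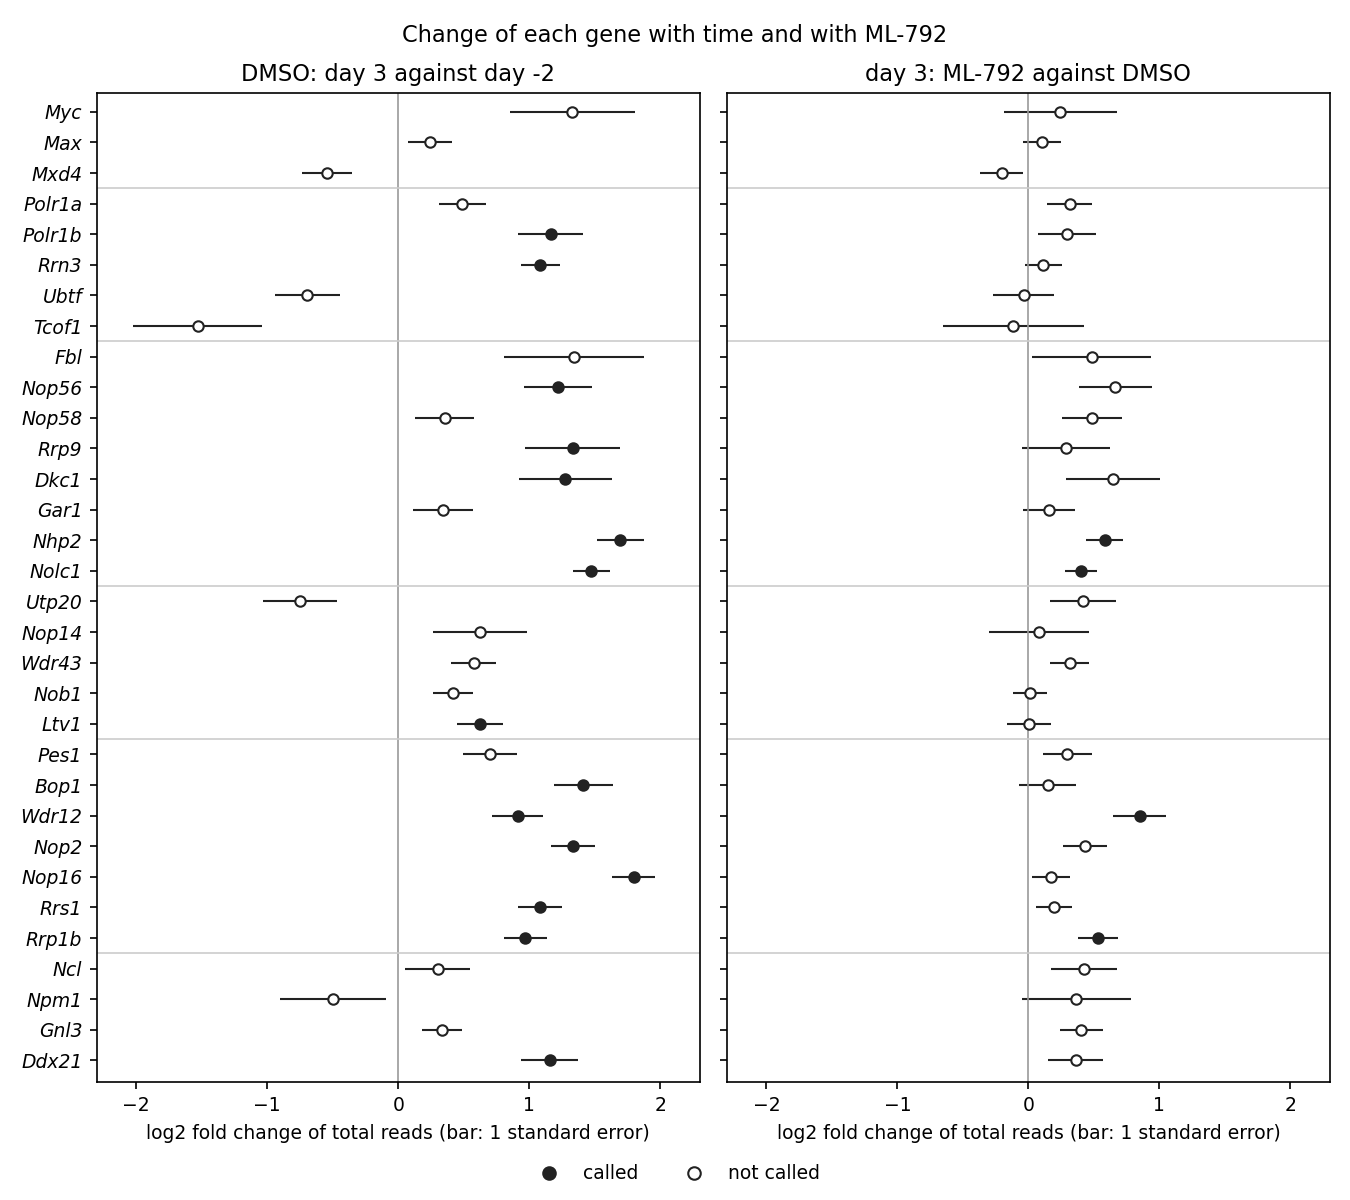
Log2 fold change of total reads with 1 standard error for each of the 32 genes, for day 3 against day −2 in DMSO (left) and for the 2 treatments at day 3, as ML-792 over DMSO (right), with filled symbols for called genes. On the left 15 genes are filled, all to the right of 0, and on the right 4 genes are filled while 29 lie above 0. Both panels share the 3 DMSO libraries of day 3.

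Rrp1b and Nhp2 were called at both day 1 and day 3. Rrp1b read 1242, 1185 and 1147 in ML-792 at day 1, against 802, 819 and 742 in DMSO, and 679, 453 and 677 at day 3, against 418, 399 and 435. The 2 treatments did not overlap on either day, and the differences were 0.60 ± 0.15, adjusted p = 0.0134, and 0.53 ± 0.15, adjusted p = 0.0204 on the log2 scale. Rrp1b was also above DMSO in all 3 libraries at day −2 (300.1, 261 and 277 against 222, 204 and 213), a log2 difference of 0.39 that was not called. Nhp2 read 918, 929 and 992 at day 1 in ML-792 against 743, 719 and 674 in DMSO. At day 3 it read 2010.4, 1996 and 1985 against 1257, 1271 and 1478. Again the treatments did not overlap (log2 0.41 ± 0.14, adjusted p = 0.0971 at day 1 and 0.58 ± 0.14, adjusted p = 0.00652 at day 3), and at day 7 Nhp2 was not called (log2 0.22). Without replicate A none of these 4 calls was made. Without C the calls of Rrp1b on both days and of Nhp2 at day 1 were lost as well, and Nhp2 at day 3 was kept.

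Wdr12 and Nolc1 were called at day 3 alone. Wdr12, of the complex with Pes1 and Bop1 (chr1:60076868-60078163, minus strand), read 462, 631 and 424 in ML-792 and 313, 249 and 279 in DMSO, a 1.80-fold difference (log2 0.85 ± 0.20, adjusted p = 0.00579) that was 0.58 and no longer called without replicate B. Its partners Pes1 and Bop1 stood at 0.30 and 0.15 without a call. Nolc1 read 2442, 2722 and 2614 against 1931, 2044 and 1925, a smaller difference over tight replicates (log2 0.40 ± 0.12, adjusted p = 0.0322) that was not called without replicate A or without C. Other snoRNP proteins had larger but uncalled values at day 3, Nop56 0.66 ± 0.28 and Dkc1 0.65 ± 0.36. Without replicate A, B or C the number of called genes at day 3 was 1, 7 and 2, all higher (7.27%, 21.2% and 8.75% of all genes were called). At day 1 it was 0, 4 and 0 (2.82%, 11.2% and 3.98% of all genes), with Ubtf lower among the 4 (log2 −0.46 ± 0.15). At day 3 the markers of cell states differed too: the 6 pre-adipocyte markers summed to 21932 to 23215 normalized reads in ML-792 and 8201 to 9113 in DMSO, with 4 called higher and 1 lower, and the 6 markers of dividing cells to 2169 to 3252 and 4143 to 5701, with 4 called lower. The 6 adipocyte markers summed to 243667 to 285248 in ML-792 and 158582 to 250836 in DMSO, ranges that overlap. Among them Adipoq was called lower (log2 −0.87). The part of all these markers in the differences of the 32 genes was not tested.

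At day 7 the genes called were Myc and Nob1. Myc read 560.0, 481 and 808 in ML-792 and 381, 60.3 and 278 in DMSO, so that every ML-792 library lay above every DMSO library (log2 1.37 ± 0.45, adjusted p = 0.0582). It was 1.94, 1.05 and 1.24 without replicate A, B or C, with adjusted p = 0.10002, 0.114 and 0.357, and was not called in any of these. At the earlier days Myc differed by −0.53, 0.15 and 0.24 without a call. Nob1 (chr8:107412489-107412913, minus strand) read 589, 586 and 599 against 488, 428 and 471, without overlap, and lay just inside the threshold (log2 0.35 ± 0.13, adjusted p = 0.0997) and was lost without any 1 of the 3 replicates. For Max (−0.18) and Mxd4 (0.10) no call was made at day 7. The markers of cell states differed at day 7 as well. The 6 adipocyte markers summed to 520434 to 558337 normalized reads in ML-792, above the 319450 to 363427 of DMSO, with 2 called higher, and the 6 pre-adipocyte markers to 6953 to 8047, against 5461 to 6264, with 4 called higher and 1 lower. The 6 markers of dividing cells summed to 669 to 1305 and to 728 to 1305, with 2 called lower. Their part in the differences of Myc and Nob1 was not tested.

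Whether the effect of ML-792 differed between days was tested with 3 interaction terms in the same fit. None of the 32 genes was called at an adjusted p under 0.1, where 14.1% of all genes were. At an unadjusted p under 0.05 there were 5 genes, Nolc1, Wdr12, Gnl3, Wdr43 and Myc, and DESeq2 called 2, Myc and Nolc1 (19.3% of all genes). With the replicate block 6 were called (29.1% of all genes). The single term for day 3 against day −2 was called for Nolc1 (log2 0.55 ± 0.17, adjusted p = 0.0711), beside 7.13% of all genes. At days 1, 3 and 7, ML-792 gave calls for 4.50%, 9.08% and 7.23% of all genes as higher and 4.61%, 8.06% and 6.72% as lower. Among the 83 other ribosome biogenesis genes it gave 1 call at day 1, Imp3, which was lower (log2 −0.41), and none at days 3 and 7. Their medians were 0.10 and 0.13 at days 1 and 3, with positive values for 57, 55 and 41 genes at days 1, 3 and 7. Of the 40 other MYC target genes, 3 were called higher at day 1, 6 higher and 2 lower at day 3, and 1 higher and 5 lower at day 7. Tfrc, the transferrin receptor, was among the higher ones at day 3 (log2 1.05) and Ldha, lactate dehydrogenase, among the lower ones at day 7 (−0.85).

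In labelled reads 22 of the 32 genes had enough counts to be tested, and their course depended on how the libraries were scaled. Labelled reads made up 2.73 to 3.67% of a DMSO library at day −2 and 0.905 to 1.36% on the later days. With labelled reads scaled by the total reads, the median gene stood at −1.23, −1.66 and −1.50 on the log2 scale at days 1, 3 and 7, and the 22 genes at −0.68, −0.86 and −0.56. Of these 22, 2 were called lower at day 3, Rrn3 and Ubtf (33.3% of all genes were called lower and 2.02% higher), and none at day 1 or 7 (20.1% and 29.8% lower, 0.569% and 1.98% higher; 3 and 7 of the 22 had an unadjusted p under 0.05, and DESeq2 called 1 and 0). Labelled reads of Rrn3 were 61, 26 and 56 at day −2 and 9, 4 and 17 at day 3 as counted (log2 −1.86 ± 0.60, adjusted p = 0.00893). Those of Ubtf were 58, 14 and 47, and 9, 4 and 7 (log2 −2.17 ± 0.63, adjusted p = 0.00427). Both calls were lost without replicate A or C. When the library sizes were instead taken from the labelled reads, the median gene stood at −0.11, −0.25 and −0.24 and the 21 genes then tested at 0.31, 0.37 and 0.47. Rrn3 and Ubtf were then not called, and Nop16 and Rrs1 were called higher at days 3 and 7.

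In labelled reads none of the 22 genes differed by call between ML-792 and DMSO on any day, under either scaling. Calls were few over all genes as well, 0.00% at day −2, 1.34% at days 1 and 3 and 1.09% at day 7. At an unadjusted p under 0.05 there were 1, 0, 0 and 4 of the 22 genes at days −2, 1, 3 and 7, and DESeq2 called none. The interaction gave no call either (0.300% of all genes, 1 of the 22 at an unadjusted p under 0.05, and none by DESeq2). The counts behind these values were small. Nolc1, called in total reads at day 3, had 14 to 25 labelled reads in the 6 libraries of that day.

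The share of a gene's reads that carry the label is higher where more of its mRNA was made during the pulse, and it also depends on the number of T bases that the reads cover. Myc had the highest share of the 32 genes at day −2, with 24.4% (95% Wilson interval 20.3 to 29.0%), 19.0% (16.4 to 22.0%) and 26.2% (21.7 to 31.3%) in DMSO, above 99.2 to 99.7% of the genes with 100 or more reads in these libraries. The intervals cover counting error only. At day 3 it was 6.40, 6.45 and 7.35%, with libraries at 0.9117 to 1.136%. At day 7 it was 12.4, 5.08 and 19.7% in DMSO, where replicate B rests on 3 labelled of 59 reads, and 3.10, 2.44 and 4.93% in ML-792. The ML-792 libraries of day 7 lay below all DMSO libraries, while the total level of Myc lay above, and this difference of shares was given no test. The labelled share of the whole library was also lower in ML-792 at day 7, at 0.786 to 0.846% beside 0.905 to 1.07% in DMSO. In labelled reads themselves Myc read 42, 3 and 49 in DMSO and 15, 9 and 30 in ML-792 as counted, and its difference was not called (log2 −0.60 ± 0.52, adjusted p = 0.688).

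Besides Myc, only Rrs1 had a labelled share above that of the whole library in 24 of 24 libraries, from 4.64 to 13.5%. Gnl3 was above in 23 of 24 libraries, and Nop56 and Nop58 in 21. Bop1 and Ncl were above in none, and Nop16, among the strongest risers in total reads, in 8. Over all 24 libraries the median share was 7.05% for Myc, 6.97% for Rrs1, 2.32% for Gnl3, 0.809% for Nop16 and 0.571% for Npm1. As the entries differ in their T bases (166 of 453 bases for Myc and 285 of 834 for Rrs1), these shares are a description and were not tested between genes.

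**Figure D5:**
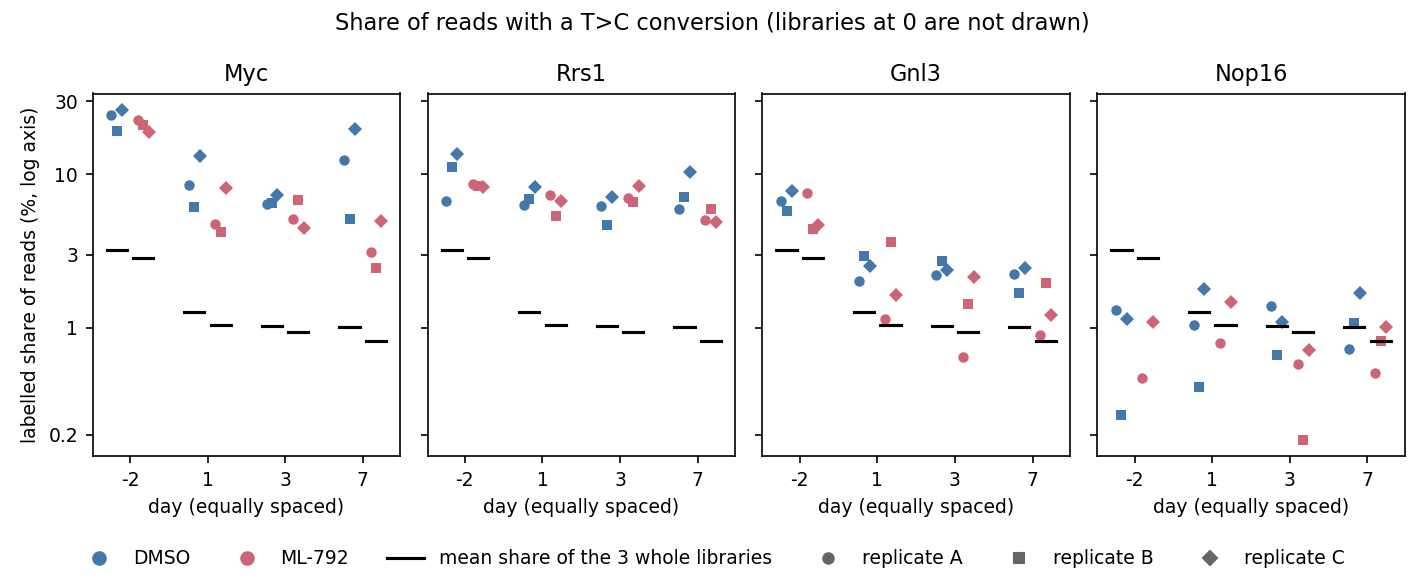
Labelled share of reads in percent (log axis) of Myc, Rrs1, Gnl3 and Nop16 at each day, with 1 symbol per library and black bars at the mean share of the 3 whole libraries of that condition. Myc and Rrs1 lie above the bars in every library, and Nop16 lies below them at day −2 in both treatments.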

How the data were processed

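The authors counted, with SlamDunk 0.4.3 on mm10, the reads and the T>C reads at RefSeq 3′UTR entries in 24 libraries (bcl2fastq 2.17.1.14). The deposited tables hold raw counts. Whether counting used the strand is not given in the sources used here, and 6 library columns matched no sample and were not used. Genes and lists were chosen with earlier results of these data known. From the counts, 1 entry per symbol was kept, genes were filtered with filterByExpr (minimum 10 reads in a library, 15 in all), and normalized reads were computed with TMM factors of the total reads, which also scaled the labelled reads. edgeR 4.0.16 (R 4.3.3) with robust quasi-likelihood fits gave log2 fold changes and Benjamini-Hochberg adjusted p-values over all genes tested. Standard errors were computed as the size of the log2 fold change over the square root of the F statistic. Correlations between libraries used log2 values with a prior count of 2. The DMSO time course used 12 libraries, and ML-792 against DMSO and the interaction used 24. DESeq2 1.42.0 was an alternative. The edgeR fit of day 7 against day −2 in DMSO was tested on simulated counts without a replicate effect. The fits of ML-792, of the interaction and with the replicate block were not part of that test. Values per library were fixed for Myc, Max and Mxd4, for the 6 called genes with the largest non-overlapping change at day 7, the 3 with the highest change at day 1 and up to 4 called genes per day with the smallest adjusted p for ML-792. Other genes given by library were chosen after their values were seen.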

Additional observations from a re-analysis of the deposited data

How the results depend on the processing

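The number of the 32 genes called in total reads moved with the setting, and no called gene changed sign. The share of all genes called in the same fit, in either direction, follows each count in parentheses. The setting with all entries put every entry into the fit, but calls were still read at the 1 entry kept per gene. It does not test the choice of entry. At day 1 against day −2 (7 genes, 18.3%) it was 13 with DESeq2 (24.2%), 12 with a replicate block (26.7%) and 11 with all 24 libraries in the fit (23.5%), and 1 to 13 without 1 of the replicates (4.37 to 24.4%). Leaving out 1 replicate gave 6 to 22 at day 3 (18.9 to 42.2%; 15 genes and 37.5% with all) and 3 to 11 at day 7 (21.5 to 42.9%; 9 genes and 39.6%), where the replicate block gave 16 (48.1%). For ML-792 at day 1 (2 genes, 9.11%) it was 1 without the filter on low counts (4.75%), with all entries (7.90%) or with only the 6 libraries of the day (6.22%), 8 with the replicate block (18.3%), and 0 to 4 without 1 of the replicates (2.82 to 11.2%). For ML-792 at day 3 (4 genes, 17.1%) it was 2 without the filter (8.75%) or with only the 6 libraries (11.7%), 14 with the block (26.8%), and 1 to 7 without 1 replicate (7.27 to 21.2%). For ML-792 at day 7 (2 genes, 14.0%) it was 4 with DESeq2 (16.6%), 1 with all entries (11.8%), 0 without the filter (6.92%) or with the 6 libraries (11.5%), 6 with the block (25.0%), and 0 to 3 without 1 replicate (4.79 to 17.3%). The interaction (0 genes, 14.1%) gave 2 with DESeq2 (19.3%), 6 with the block (29.1%) and 0 to 1 without 1 replicate (3.04 to 17.9%). In labelled reads day 1 (0 genes, 20.7%) gave 1 with DESeq2 (22.2%) and 0 to 2 without 1 replicate (5.65 to 22.1%). Day 3 (2 genes, 35.3%) gave 1 without the filter (14.0%) or with all entries (33.6%) and 0 to 3 without 1 replicate (15.0 to 32.9%). Day 7 (0 genes, 31.7%) gave 1 without the filter (12.6%) or with the replicate block (34.7%), 2 when scaled by the labelled reads (16.0%) and 0 to 2 without 1 replicate (12.4 to 30.0%). The cause was not tested.

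Values that were not called turned sign in many places, of which those of Myc, Max and Mxd4 are given first. Labelled reads of Myc stood at 0.21 at day 1 and 0.86 at day 3 when scaled by the labelled reads. Without 1 of the replicates Myc ranged from −1.55 to 0.14 at day 7 against day −2, and for ML-792 from −0.95 to 0.16 at day −2, from −0.066 to 0.33 at day 1 and from −0.0041 to 0.39 at day 3. Max ranged from −0.0011 to 0.15 for ML-792 at day −2. Mxd4 ranged from −0.020 to 0.26 at day 7 against day −2 and from −0.35 to 0.048 for ML-792 at day 3. Other genes turned sign too. For ML-792 at day −2, Bop1 ranged from −0.24 to 0.22, Wdr12 from −0.20 to 0.35 and Nop56 from −0.18 to 0.33. At day 7 Bop1 ranged from −0.14 to 0.29 and Rrp1b from −0.079 to 0.24 for ML-792, and these are examples, not a full list.

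Whether the letters pair the libraries is not given in the sources used here, and it was checked with the correlations of same-letter libraries' deviations from their group means, 3 in each of 9 comparisons that share libraries. In total reads all 3 were over 0.1 in 6 of the 9 comparisons (days 1 and 3 against day −2, day 3 against day 1, day 7 against day 3, and ML-792 at days −2 and 1), and in labelled reads in 0 of 9. In 24 of 27 same-letter pairs, in total as in labelled reads, the own letter correlated best, as a hint from the data and not from the design. The depth of labelled reads, 78312 to 553883 per library, limits what could be tested to 22 of the 32 genes.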
